A study of Mus musculus with 3 samples.

Results

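The genes of the cytoplasmic ribosomal proteins were followed through 3 single-cell libraries of mouse brain microglia. Members were the rows named Rps or Rpl with a number and at most a pair of the letters a, l, x or y, together with Rpsa, Rplp0, Rplp1 and Rplp2. Pseudogene rows ending in -ps and the Rps6k kinases were left out, and the rule uses names only. This gave 80 of the 15635 genes found in any of the files, 31 of the small and 49 of the large ribosomal subunit, of which 79 were in the control file, 80 in the hCD33M file and 79 in the hCD33m file. Only 78 reached 20 CPM in microglia-like cells and were measured further. A unique molecular identifier (UMI) marks 1 captured transcript, and CPM scales the summed UMIs of a gene to the total of the same cells, as counts per 1e+06 UMIs. The members left below that level were Rpl39l, at 1.96 CPM in control, 4.17 in hCD33M and 1.79 in hCD33m, and Rpl3l, with 0 UMIs in each.

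The libraries came from control mice (Wild type in the labels), from mice with the long human CD33 isoform (hCD33M) and from mice with the short isoform (hCD33m), all aged 8 weeks. Per the methods, both transgenes sat at Rosa26 behind a floxed stop and were switched on by Cx3cr1-Cre, so that expression followed the Cx3cr1 lineage; for the phagocytosis assay the methods give WT controls that carried Cre, and for the sequenced control mice Cre is not stated in the sources used here. The hCD33m line went back to an injected embryonic stem cell clone, all mice were on a C57BL/6 background, and cells of a pair of mice were pooled per genotype and sorted for CD11b, CD45 and Cx3cr1. Per the methods, transcription inhibitors (actinomycin D and triptolide) were in the perfusion buffer, and the storage buffer used for homogenizing also held the translation inhibitor anisomycin. No inhibitor is listed for the later Percoll, wash, staining and sorting steps. No difference between the groups in these steps is given. With 1 library per genotype, genotype, mice, isolation and sequencing cannot be told apart, no test between genotypes was possible and no p is given. Intervals are 95% intervals. Those on levels, ratios, shares and fractions of cells cover counting error only, and those on a median of the family are over its members.

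Ribosomal proteins join with ribosomal RNA to build the small subunit, which reads the messenger RNA, and the large subunit, which forms the peptide bonds. Most are made in matched amounts, and their mRNAs share a start region rich in C and T, the TOP motif, through which mTORC1 signalling controls their translation. In single-cell data they are among the most abundant transcripts of nearly every cell type, and the share of RNA given to them varies with cell type and growth.

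After removal of barcodes with more than 8000 genes or over 10% mitochondrial UMIs, 5891 control, 5710 hCD33M and 6068 hCD33m cells remained, with a median of 4303, 4215.5 and 4881 UMIs. Per the methods, the authors kept fewer cells of each library after their own quality control, so the cells here are not the same set. Libraries shared 4, 12 and 9 barcodes in pairs and 0 across all 3. The hCD33m library is labelled female, but Xist had 0 UMIs there and the Y-linked Ddx3y stood at 94.9 CPM, against 95.3 and 105 CPM in the control and hCD33M libraries labelled male. Of 13 clusters, made without the ribosomal protein genes, 8 were microglia-like by markers such as P2ry12 and Tmem119 (4291, 4107 and 4909 cells), 1 of 208 cells was border associated macrophage-like and 1 of 84 cells was monocyte-like. Clusters 3, 6 and 8 stayed unnamed, cluster 3 by its low depth. P2ry12 and Tmem119 stood at 4170 and 1771 CPM in cluster 3 and at 961 and 583 CPM in cluster 6, against 3472 and 1634 CPM in cluster 0. Of the marker lists of other cells, summed over microglia-like cells, the monocyte list ran from 13.5 to 15.4 CPM between libraries and the macrophage list from 8.96 to 12.2 CPM. The highest sums were those of the B cell list (289 to 352 CPM) and the astrocyte list (196 to 236 CPM), and the erythroid markers were at 0 UMIs in control.

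Entries for 60 of the 80 members were found in RefSeq's promoter table (GRCm38.p6), several with more than 1 start, giving 72 start sites. A run of at least 8 C or T on the coding strand within 10 bases before to 15 after the start was held by 22 of these 72 sites, 30.6%, against 9.49% of all 32851 sites in the table. The hexamer CTTTCC, on either strand from 250 bases before to 50 after the start, was present at 50% of member sites and 26.6% of all sites, and CTTTTC at 23.6% and 21.8%; either hexamer can overlap the C and T run. Annotated starts can miss the true start by several bases, and absence of a run says only that these letters are not in this window. The 30 bases around the start are printed below for the 3 members that left the common trend between libraries (Rpl35, Rpl36al and Rps28) and for 3 members with a long run that otherwise serve as comparison, with the longest C and T run of the searched stretch, from 10 bases before to 15 after the start, in capitals.
Rpl35 (chr2:39005117-39005146, minus strand): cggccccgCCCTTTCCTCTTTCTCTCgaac
Rpl36al (chr12:69184053-69184082, minus strand): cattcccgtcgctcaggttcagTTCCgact
Rps28 (chr17:33824548-33824577, minus strand): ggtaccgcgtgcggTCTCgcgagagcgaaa
Rpl38 (chr11:114668565-114668594, plus strand): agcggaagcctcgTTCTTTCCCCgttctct
Rps18 (chr17:33955651-33955680, minus strand): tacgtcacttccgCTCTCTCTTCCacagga
Rpl13a (chr7:45128731-45128760, minus strand): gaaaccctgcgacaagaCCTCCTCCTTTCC
Rpl35, which fell furthest between libraries, held a run of 18 bases in the searched stretch. Rpl36al and Rps28, which stood above the trend, held runs of at most 4 bases in it. Rpl10, the member furthest below the trend after Rpl35, also held a short run, of 3 bases. A link between run length and the ratio of a member was not tested.

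Ribosomal protein genes took 6.68% of all UMIs in kept control cells (6.67 to 6.69), 6.07% in hCD33M (6.07 to 6.08) and 6.67% in hCD33m (6.67 to 6.68). Over microglia-like cells alone the shares were 6.72% in control, 6.13% in hCD33M and 6.54% in hCD33m. The hCD33M library was thus the lowest on both scopes, and control the highest, though only just above hCD33m over all kept cells. Small-subunit UMIs were 0.748 of large-subunit UMIs in control, 0.751 in hCD33M and 0.761 in the hCD33m microglia-like cells, so that both subunits held nearly the same proportion in each library. A cell thinned to 1600 UMIs contained a median of 53 detected members in control, 51 in hCD33M and 52 in hCD33m.

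The cells fell into a low and a main mode of ribosomal protein share. The SD over microglia-like cells was 2.60 percentage points in control, 2.31 in hCD33M and 2.10 in hCD33m, against 0.386, 0.368 and 0.36 points that counting alone would give at these depths. Shares under 3%, a limit set after the distribution was seen, were found in 1912 of 5891 control cells (32.5%, exact interval 31.3 to 33.7), 1958 of 5710 hCD33M cells (34.3%, 33.1 to 35.5) and 1056 of 6068 hCD33m cells (17.4%, 16.5 to 18.4). The low mode was therefore smaller in the hCD33m library, and 845 of the 17669 cells lay between 2.5% and 3.5%. Of the 4926 low-share cells, 4686, or 95.1%, were in clusters 3, 5 and 6.

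**Figure D1:**
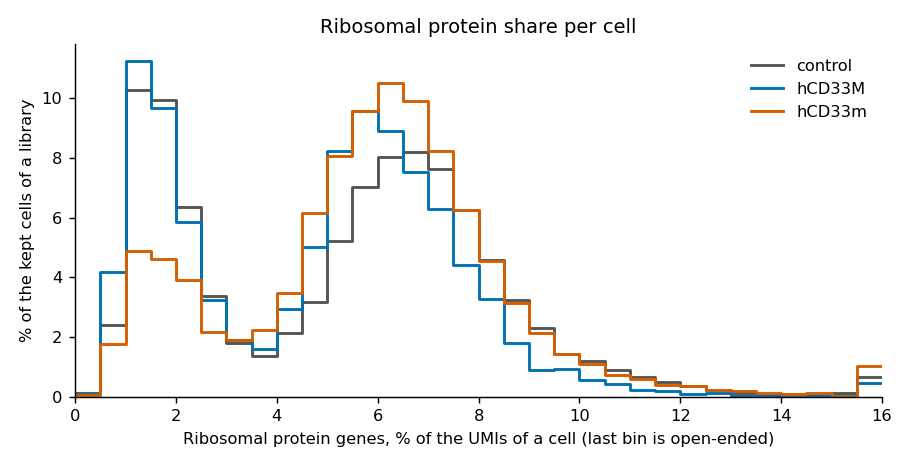
Histogram of the share of each cell's UMIs that came from ribosomal protein genes (horizontal axis, %), as % of the kept cells of each library (vertical axis); lines are the control, hCD33M and hCD33m libraries, and the last bin is open-ended. A low mode under 3% holds 32.5%, 34.3% and 17.4% of cells in that order, and a main mode lies near 6%.

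Low-share cells differed from the rest in depth and in other RNA classes. Their median was 1213 UMIs against 5437 in the other cells, their median mitochondrial share 3.83% against 1.32%, and their median share of the nuclear noncoding RNA Malat1 10.7% against 4.61%. For cluster 5 the gap was also seen at matched depth. Clusters 3 and 6, with medians of 1104.5 and 722 UMIs, were not compared at matched depth. Among cells with 1600 to 2400 UMIs, cluster 5 held a ribosomal protein share of 1.55% in control (292 cells), 1.40% in hCD33M (338 cells) and 1.59% in hCD33m (134 cells). The other microglia-like cells at that depth held 5.37% (103 cells), 3.998% (42 cells) and 5.99% (112 cells). Their medians over cells were 5.52% in control, 3.22% in hCD33M and 6.18% in hCD33m, so the gap was narrowest in hCD33M, where these cells were fewest. The part of mitochondrial share and nuclear RNA in the low mode was not tested. Quartiles of depth were taken over the microglia-like cells of each library, so the unnamed clusters 3 and 6 were not in them. Above the lowest quartile of depth the share was flat, at 7.10%, 7.10% and 6.88% in quartiles 2 to 4 of control, 6.36%, 6.44% and 6.26% in hCD33M, and 6.70%, 6.74% and 6.57% in hCD33m. Within the lowest quartile it was 4.15%, 3.999% and 5.65%.

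Immediate early genes of microglia-like cells were higher in both transgenic libraries, with sums of 7111 CPM (control), 11073 CPM (hCD33M) and 14041 CPM (hCD33m). Heat shock genes were higher there too, with sums of 1692, 2680 and 2085 CPM for the libraries in the same order. In hCD33M against control, 4.15% of all genes were called higher. Of the immediate early genes 19 of 28 tested were, with 1 called lower. Of the heat shock genes 5 of 7 tested were, with 0 called lower. The part of either list in the ribosomal protein share was not tested. Cells thinned to 1600 UMIs with a Fos UMI held a share of 6.21% in control, 5.59% in hCD33M and 6.35% in hCD33m. The cells without a Fos UMI held 6.37%, 5.85% and 6.46%, a little higher in each library. Free RNA can also place a Fos UMI in a cell.

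Member levels spanned a wide range with nearly the same order in each library. UMIs were counted from transcript 3′ ends, so a level is not scaled by gene length and stands for captured transcripts. Rps29, a small-subunit protein, was the highest member, at 2915 CPM in control, 2683 in hCD33M and 3086 in hCD33m. Rplp1, an acidic stalk protein that helps recruit elongation factors, followed at 2486, 2310 and 2335 CPM. The next were small-subunit Rps24 (1483, 1318 and 1369 CPM), Rps21 (1388, 1240 and 1424 CPM) and Rps12 (1370, 1253 and 1368 CPM) and large-subunit Rpl13 (1349, 1218 and 1273 CPM). The 10 highest members held 24.3% and the 20 highest 41.8% of all member UMIs, and 21 members exceeded 1000 CPM in every library.

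At the low end were Rpl13a, at 109 CPM in control, 91.4 in hCD33M and 103 in hCD33m, and Rps27l, a paralog of Rps27, at 124, 123 and 127 CPM. Rpl31 (253, 242 and 256 CPM), Rpl36al (260, 295 and 288 CPM), Rpl4 (316, 285 and 293 CPM) and Rpl27 (339, 352 and 359 CPM) came next. Most ribosomal proteins sit in the ribosome as single copies, yet their mRNA counts differed widely, Rps29 and Rpl13a being the extremes among measured members. An overlapping gene model on the same strand (Gm45713) makes the count of Rpl13a uncertain.

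Paralogs were far below their partners or close to them, depending on the pair. Rps27l stood at 124 CPM in control against 1100 CPM for Rps27, and Rpl39l at 1.96 against 1181 CPM for Rpl39. Rpl36al, by contrast, reached 260 CPM in control against 371 CPM for Rpl36a. Rps4x, the X-linked form, was at 999 CPM in control, 861 in hCD33M and 956 in hCD33m. The stalk base Rplp0 was at 713, 622 and 673 CPM and its partner Rplp2 at 925, 873 and 938 CPM, both well under Rplp1. Rps6, the substrate of the S6 kinases, was at 450, 431 and 432 CPM, and Rpl5 and Rpl11, which can also bind the p53 regulator Mdm2 outside the ribosome, were at 538, 508 and 533 CPM and at 905, 804 and 837 CPM.

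**Figure D2:**
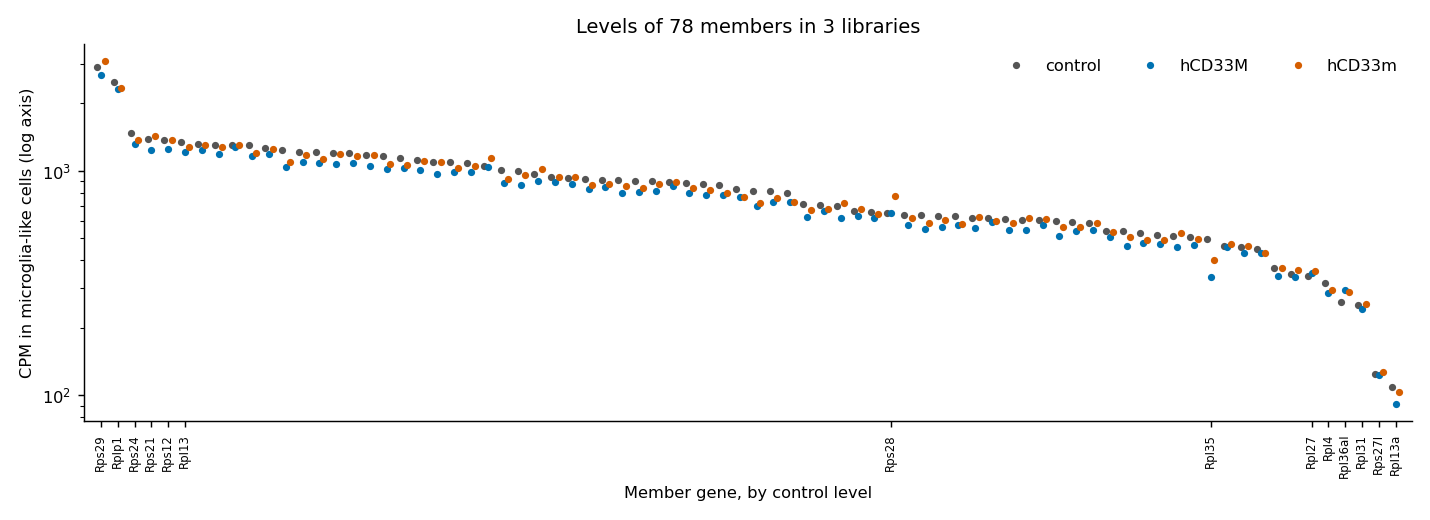
Level of each of the 78 measured members in microglia-like cells (vertical log axis, CPM), ordered by the control level along the horizontal axis, with 1 point per library; the 6 highest, the 6 lowest and the members off the trend between libraries are named. Rps29 and Rplp1 stand above 2000 CPM and Rps27l and Rpl13a near 100 CPM in all 3 libraries; most hCD33M points lie just under the control points.

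In hCD33M against control, the family moved down together by a small amount. The median log2 ratio of CPM over the 78 members was -0.14 (order-statistic interval over members -0.15 to -0.13), and 76 of 78 ratios were below 0, the exceptions being Rpl27 and Rpl36al. The median over all 6791 genes tested was 0.01. At 1.2-fold, 0 members were called higher and 1 lower, Rpl35, where 4.15% of all genes were called higher and 3.12% lower. The shift was the same in both subunits, with medians of -0.14 in each, and 68 of 78 members lay within 0.1 of the family median.

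In hCD33m against control the family shift was nearer to 0. The median log2 ratio was -0.05 (-0.07 to -0.02), with 56 of 78 ratios below 0. Again 0 members were called higher and 1 lower, against 5.81% and 4.4% of 6793 genes. In hCD33m against hCD33M the median was 0.08 (0.07 to 0.10), 77 of 78 ratios were above 0, and 0 members were called in either direction, against 2.75% of 6768 genes called higher and 3.19% called lower. The first 2 comparisons share the control library. Summarised cell by cell instead of over summed UMIs, the hCD33m median against control became 0.016, so its direction depended on how cells were weighted.

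The pooled ribosomal protein share was lower in hCD33M than in control in 13 of 13 clusters, by 0.042 to 2.15 percentage points, and lower than in hCD33m in 13 of 13. By the median over cells it was lower than in control in 12 of 13, the exception being cluster 10, at 6.72% in hCD33M (19 cells) and 6.47% in control (35 cells). In cluster 11 the intervals of the pooled shares overlapped, and in cluster 12 the medians over cells were 20.3% and 20.4%. It was lower in hCD33m than in control in 6 of 13 clusters. Within the 8 microglia-like clusters, the median log2 ratio of members in hCD33M against control ran from -0.13 to -0.02, all below 0, and in hCD33m against control from -0.07 to 0.11, with 5 of 8 below 0.

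A small number of members left the common trend by 1.2-fold or more. There were 2 in hCD33M against control and 2 in hCD33m against control, and 0 in hCD33m against hCD33M, where 7.08%, 10.2% and 5.98% of all genes lay as far from the median of all genes. Counts of microglia-like clusters are given below for the members off the trend. These clusters are parts of the summed cells from which the members were picked. Clusters of 1 library are no replicates, so the counts are descriptions and add no support.

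Rpl35, a large-subunit protein near the exit of the peptide tunnel, was at 497 CPM in control (489 to 505), 337 in hCD33M (330 to 343) and 400 in hCD33m (393 to 406). Its log2 ratio to control was -0.56 (-0.60 to -0.52) in hCD33M and -0.31 (-0.35 to -0.28) in hCD33m, which is 0.42 and 0.27 below the family median. It lay below the family median in 8 of 8 microglia-like clusters in both comparisons. The gene (chr2:39001580-39005624, GRCm38, GENCODE M21) overlaps Arpc5l and Wdr38 on the opposite strand.

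Rpl36al was at 260 CPM in control (254 to 266), 295 in hCD33M (289 to 301) and 288 in hCD33m (283 to 294), so both transgenic libraries were above control. Its log2 ratio of 0.18 in hCD33M stood 0.32 above the family median, and it was above that median in 8 of 8 clusters. In hCD33m the ratio was 0.15, or 0.19 above the median, and 7 of 8 clusters were above. The gene (chr12:69182731-69184083) overlaps the gene model Gm49383 on the same strand, which makes its count uncertain.

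Rps28, a small-subunit protein of the mRNA exit region, was at 648 CPM in control (638 to 657), 647 in hCD33M (638 to 656) and 769 in hCD33m (760 to 779). In hCD33m its log2 ratio to control was 0.25 (0.22 to 0.28), 0.29 above the family median and above it in 8 of 8 clusters. In hCD33M the ratio was -0.0014, which is 0.14 above the family median, and 7 of 8 clusters were above. The gene (chr17:33819027-33824562) overlaps Kank3 on the opposite strand.

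**Figure D3:**
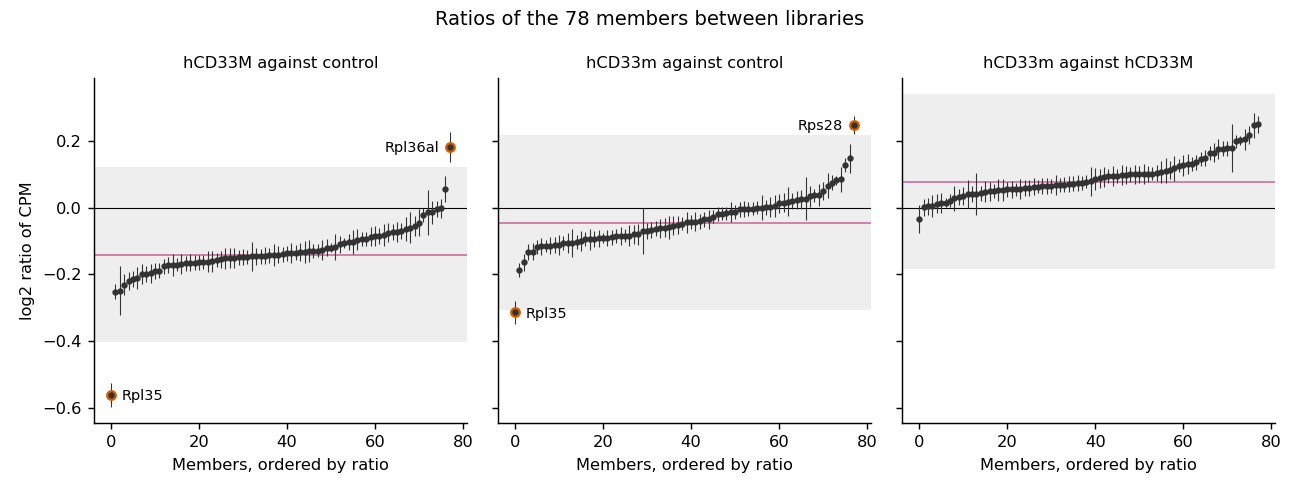
Log2 ratio of CPM (vertical axis) for each of the 78 members in microglia-like cells, ordered by ratio along the horizontal axis, for the 3 comparisons between libraries; bars are 95% counting intervals, the coloured line is the family median and the grey band marks 1.2-fold on either side of it. Rpl35 and Rpl36al lie outside the band in hCD33M against control, Rpl35 and Rps28 in hCD33m against control, and no member in hCD33m against hCD33M.

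A few ribosomal proteins under names outside the rule were read beside the members. Fau, which carries Rps30, was at 2021 CPM in control, 1866 in hCD33M and 1966 in hCD33m, Rps3a1 at 1029, 915 and 937 CPM, and Rack1 at 463, 426 and 456 CPM. Rps27rt, a relative of Rps27, moved the other way, at 70.7, 113 and 95.5 CPM. Rpl10-ps3 did so too, at 55.4, 83.6 and 74.2 CPM, beside 1243, 1043 and 1092 CPM for Rpl10, the member furthest below the trend after Rpl35; near-identical copies can share reads, so these values are uncertain.

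Other lists of the translation machinery were read in the same way. Of 18 other mRNAs of the TOP class, such as the elongation factor Eef1a1, 17 were tested and 0 were called in any comparison. Of all genes, 2.75% to 5.81% were called higher and 3.12% to 4.4% lower, so 0 of so few genes says little. The median log2 ratio of these mRNAs was -0.09 in hCD33M and -0.03 in hCD33m against control. Eef1a1 itself was at 2093, 1866 and 2006 CPM and Tpt1 at 1891, 1656 and 1693 CPM. Ribosome assembly factors (23 of 30 tested) had medians of -0.01 and 0.06, genes of the mTORC1 pathway (15 of 20 tested) 0.04 and 0.08, and mitochondrial ribosomal proteins (71 tested) 0.02 and 0.01. Transcripts encoded by the mitochondrial genome had medians of -0.23 and -0.22 over 12 genes, of which 5 were called lower in hCD33M and 2 in hCD33m and 0 higher. Of all genes, 3.12% and 4.4% were called lower in these comparisons.

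Between some cell states the family moved far more than between libraries. Against the other microglia-like cells, its median log2 ratio was 0.23, 0.40 and 0.18 in clusters 0, 7 and 10. In clusters 1, 2, 4 and 11 it was only -0.10, -0.0075, -0.05 and 0.06. Monocyte-like cells, whose 10 leading genes held 3 listed neutrophil markers (S100a8, S100a9 and Retnlg) and the neutrophil genes Camp and Ngp beside 3 listed monocyte markers (S100a4, S100a6 and Plac8), spent 17.8% of their UMIs on ribosomal protein genes. Pooled over 20 control, 23 hCD33M and 41 hCD33m cells the share was 17.4%, 15.7% and 19.9%, but the medians over cells were 20.35%, 20.31% and 20.04%, closer together and in another order. Border associated macrophage-like cells spent 9.42%, or 10.4%, 8.21% and 9.57% by library, with medians over cells of 10.1%, 7.76% and 9.76%. Among microglia-like clusters, cluster 7, led by Ifi27l2a, Emp3 and Lpl, was highest at 8.36%, and cluster 5 was lowest at 1.64%. Cluster 0, the largest with 3277 cells, stood at 7.35%, the chemokine cluster 10 (Ccl3, Ccl4) at 7.27% and the interferon cluster 11 at 6.70%. Clusters 1, 2 and 4 stood at 6.11%, 6.45% and 6.32%.

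**Figure D4:**
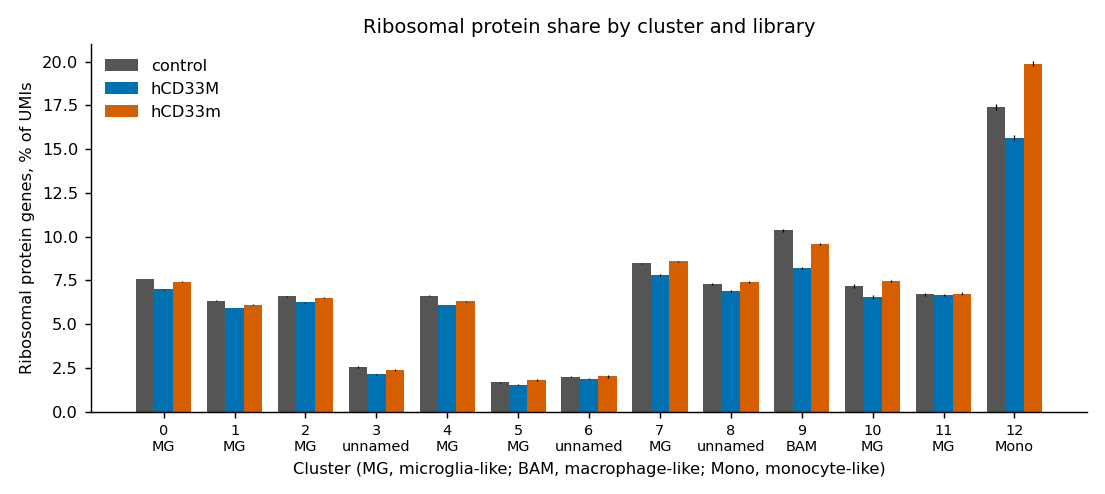
Share of UMIs from ribosomal protein genes (vertical axis, %) in each of the 13 clusters (horizontal axis, with the class of each) for the control, hCD33M and hCD33m libraries; error bars are exact 95% counting intervals. Clusters 3, 5 and 6 lie near 2%, most microglia-like clusters between 6% and 9%, and the monocyte-like cluster 12 near 18%, with the hCD33M bar lowest of the 3 in every cluster.

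Against microglia-like cells, 22 of 78 members were higher by 1.5-fold or more in the macrophage-like cluster, where 4.72% of all genes were, and the median log2 ratio was 0.52. Rpl38 (1292 against 681 CPM), Rps28 (1266 against 693 CPM) and Rpsa, the laminin receptor precursor (1026 against 564 CPM), rose most, and Rpl36al had the lowest ratio (308 against 282 CPM). In monocyte-like cells 77 of 78 members were higher, against 17.1% of all genes, with a median of 1.45. There 3 members stood 1.5-fold or more from the family median, against 47.2% of all genes from theirs: Rpsa at 2691 against 564 CPM was above it, and Rplp1 at 2701 against 2373 CPM and Rpl12 at 1093 against 602 CPM were below it. Rplp1, the second member of microglia by level, was thus the member that changed least. As clusters come from the cells compared, these values are descriptions.

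In the low-share clusters all 78 members were lower by 1.5-fold or more, against 40.6% of all genes in cluster 3, 35.7% in cluster 5 and 27% in cluster 6. The median log2 ratio was -1.51 in cluster 3, -2.04 in cluster 5 and -1.73 in cluster 6. Rpl10a fell least in clusters 5 (196 against 513 CPM) and 6 (259 against 503 CPM), and Rps21 least in cluster 3 (747 against 1354 CPM). Malat1 took 9.01%, 11.3% and 12.4% of UMIs in these clusters and mitochondrial transcripts 4.51%, 3.23% and 3.98%, against 4.10% and 1.47% in cluster 0, and their part in the fall was not tested.

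In cluster 8 the members of 1 chromosome lay below the rest of the family. It held 98 control, 107 hCD33M and 144 hCD33m cells, 1.98% of all kept cells, with a median of 4733 UMIs and a ribosomal protein share of 7.24%. Its leading genes were hemoglobins, Cst7, Vcam1 and Hcar2, but all its hemoglobin UMIs came from 1 cell of the hCD33M library. P2ry12 and Tmem119 were present at 1981 and 1448 CPM, against 3472 and 1634 CPM in cluster 0. Cst7, a cystatin of reactive microglia, stood at 507 CPM, against 7.69 in cluster 0. Its median mitochondrial share was 3.07%.

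In this cluster 10 members stood 1.5-fold or more from the family median, a share near the 12.6% of all genes that stood as far from theirs. All 10 were below it and on chromosome 7, among them Rpl13a, Rpl18, Rpl27a, Rps3 and Rps13. Rpl28, Rplp2, Rps9 and Rps19, also on that chromosome, were below it as well. All 14 members on chromosome 7 had a log2 ratio to microglia-like cells below 0 (-0.77 to -0.25, median -0.45), while 61 of the 64 members on other chromosomes had one above 0 (-0.11 to 0.58, median 0.20). In sums, the 14 members had 7851 CPM in cluster 8 against 10741 CPM in microglia-like cells, and the other 64 had 64512 against 53873 CPM.

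The pattern was present in each library. Relative to the family median, the 14 members lay between -0.78 and -0.40 in control (median -0.56), between -1.23 and -0.41 in hCD33M (median -0.66) and between -0.97 and -0.45 in hCD33m (median -0.67). The 64 others lay between -0.34 and 0.40, between -0.33 and 0.56 and between -0.41 and 0.43 in the same order, so that members on chromosome 7 and the others did not overlap in any library. Within cluster 8, the level of Rps13 by library was 610 (control), 482 (hCD33M) and 492 CPM (hCD33m), against 765 CPM in microglia-like cells. These genes run along the chromosome from Rps9 (chr7:3703993-3706897) to Rplp2 (chr7:141447370-141451585) and lie on both strands.

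**Figure D5:**
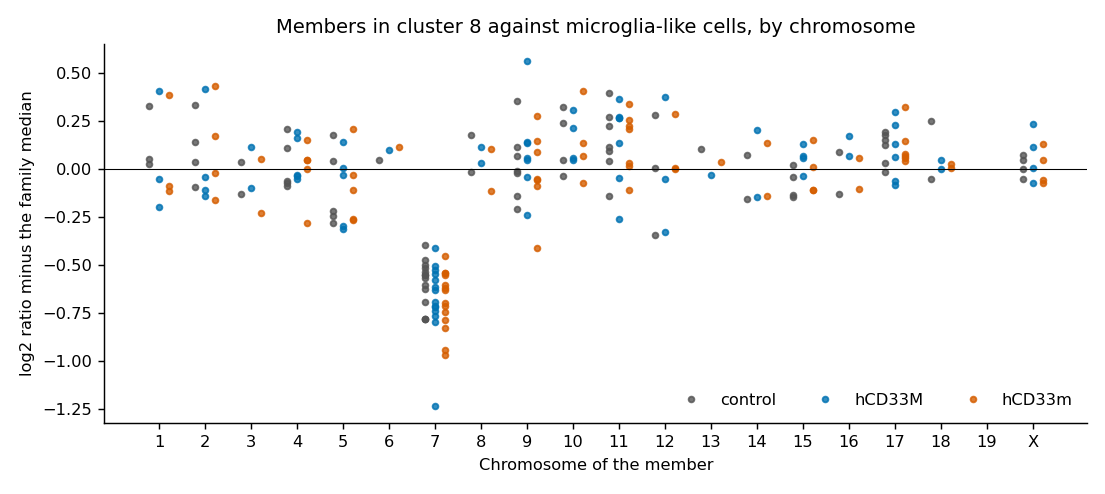
Each measured member's log2 ratio in cluster 8 against microglia-like cells, minus the family median in that library (vertical axis), by the chromosome of the gene (horizontal axis), with 1 point per member and library. All 14 members on chromosome 7 lie between -1.23 and -0.40 in the 3 libraries, and members on other chromosomes between -0.41 and 0.56.

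Genes of chromosome 7 that are no members were lower in these cells too. Over 253 such genes with at least 50 CPM in microglia-like cells, the median log2 ratio was -0.75 in cluster 8, against medians of -0.20 to -0.09 on the 19 other chromosomes. By library this median stood at -0.73 (control), -0.82 (hCD33M) and -0.72 (hCD33m). Per cell, members on chromosome 7 made up a median of 10% of ribosomal protein UMIs in cluster 8 (quartiles 8.54 and 12.1) and 16.6% in microglia-like cells (15.1 and 18.1). The clustering itself used genes of chromosome 7, though not the members, and a cause of the pattern was not tested.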

How the data were processed

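The deposited tables hold raw UMI counts per gene and cell, 1 table per library. Per the methods and labels, the authors aligned 10x Chromium 3′ reads to mm10 with Cell Ranger, imported counts into Seurat, and retained barcodes above 200 genes and only those genes seen in 3 or more cells, so a gene at 0 may have been removed there. Counts were used as deposited; totals were 32272657, 36413491 and 40629705 UMIs over 6163, 5920 and 6257 barcodes in control, hCD33M and hCD33m.

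Cells were filtered at 8000 genes and 10% mitochondrial UMIs, and no doublet caller was run beyond the gene limit. Cells were clustered with scanpy 1.11.5 and leidenalg 0.10.2 without members, mitochondrial, sex-linked, immediate early and heat shock genes among the variable genes. A cluster took a cell type's name from at least 3 listed markers, unless another type's markers led its 10 leading genes or, for a shallow cluster such as 3, none of its own were among them, and a rule on hemoglobin that left cluster 8 unnamed was added after the data were seen. CPM were UMI sums scaled to all UMIs, with exact Poisson intervals; ratios had conditional binomial and shares Clopper-Pearson intervals (scipy 1.17.1). A call needed 1.2-fold between libraries, or 1.5-fold between cell states, and an interval without no difference. Folds were computed over every gene that reached 20 CPM in either group, and the procedure was tested on simulated data. Positions are those of GENCODE M21.

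Members and lists were chosen with earlier results of these data known. Named in full were the 6 highest and 6 lowest members, members off the trend between libraries (up to 8 a comparison) or in a cell class (up to 6) and paralogs, and up to 3 genes of each other list; Rps6, Rpl5, Rpl11, Rplp0 and Rplp2, the Rpl38, Rps18 and Rpl13a start windows, and the chromosome 7 members were picked after their values were seen. Alternatives covered cell filters, denominators, TMM (edgeR 4.0.16), fold limits and clusterings. Protein sequences were not used here, and some genes are not reported here.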

Additional observations from a re-analysis of the deposited data

How the results depend on the processing

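Shares are given for control, hCD33M and hCD33m in that order. The ribosomal protein share was 6.65%, 6.13% and 6.65% with no cell filter, 6.98%, 6.35% and 6.82% at a minimum of 2000 UMIs, 6.72%, 6.13% and 6.54% over microglia-like cells, 7.18%, 6.54% and 7.15% without mitochondrial and nuclear RNAs in the denominator, 5.34%, 4.80% and 5.93% as a mean over cells, 7.08%, 6.44% and 7.07% with proteins under other symbols added, and 6.69%, 6.09% and 6.69% with the -ps rows added. Without the low-share cluster 5, an alternative chosen after seeing the data, it was 6.96%, 6.32% and 6.61% in microglia-like cells. The hCD33M library was lowest under each of these, and the order of control and hCD33m changed. The share in microglia-like cells was 6.62% at resolution 0.4, 6.45% at 1.2 and 6.43% with members among the variable genes, against 6.46%. At resolution 1.2 it was 17.8% in monocyte-like and 9.40% in macrophage-like cells. At resolution 0.4 no cluster took either name. There a cluster of 293 cells, with 8 macrophage, 7 monocyte and 4 neutrophil markers, was named neutrophil-like.

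The median member log2 ratio of hCD33M to control was -0.15 as a mean over cells and -0.10 as the mean of clusters (the latter added after seeing the data). That of hCD33m to control was -0.0087 over all kept cells, -0.079 without cluster 5, -0.0028 as the mean of clusters and 0.016 as a mean over cells, where it reversed. That of hCD33m to hCD33M was 0.12 over all kept cells, 0.16 as a mean over cells and 0.049 without cluster 5. Under TMM each of the 3 medians stayed within its interval. The TMM factors were 1.0003 in control, 1.0007 in hCD33M and 0.999 in hCD33m, so this setting could hardly move them. Members off the trend numbered 4, 5 and 3 at 1.1-fold for the comparisons in the order of the report, 0 and 0 at 1.5-fold in both comparisons with control, and 1 in hCD33m against hCD33M with no minimum CPM. No paired analysis was possible because each genotype is 1 library.

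Cluster identity, the 3% limit and the pooling of a pair of mice per library limit these values; the spread between mice was not measured, and members of low level such as Rpl13a rest on fewer UMIs. The causes of the changes between settings were not tested.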

Other observations

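Low shares of chromosome 7 UMIs were also counted per cell and then read by cluster. Over 12997 cells with at least 2000 UMIs, the genes of chromosome 7 other than members and hemoglobins made up less than 4.5% of UMIs in 277 cells, a limit set after the distribution was seen. Of these, 241 were in cluster 8, 29 in microglia-like clusters and 7 elsewhere. That is 75.1% of the 321 cells of cluster 8 at this depth, against 0.236% of 12280 microglia-like cells. The limit lies near the upper quartile of cluster 8, and the clustering used genes of chromosome 7, so these percentages are descriptions only. Cells under the limit numbered 76 in the control, 90 in the hCD33M and 111 in the hCD33m library, or 1.85%, 2.29% and 2.24% of cells. The median share of chromosome 7 was 3.68% in cluster 8 (quartiles 3.34 and 4.46) and 6.52% in microglia-like cells (6.20 and 6.83). In cluster 8 the ribosomal protein share under and over the limit was 7.65% and 7.16% in control, 7.003% and 7.322% in hCD33M, and 7.47% and 7.55% in hCD33m.

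For the other 259 pairs of a cluster and a chromosome, the median log2 ratio of the genes on that chromosome, relative to the median of all genes in the cluster, ran from -0.28 (cluster 6, chromosome 17) to 0.26 (cluster 6, chromosome 1). It was -0.59 for chromosome 7 in cluster 8.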
